A study of Mus musculus with 30 samples.

Results

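The MYC, MAX and MXD network was followed as a family of 10 genes, chosen by symbol and not by how they moved: Myc, Mycn, Mycl, Max, Mxd1, Mxd3, Mxd4, Mxi1, Mnt and Mga. The deposited table holds 34724 gene symbols, and 9 of the 10 have a row. Mxi1 was not analysed here. Of the 9 genes, 8 passed the filter on low values (at least 1 TPM in at least 3 libraries) and were among the 14093 genes tested. Mycn did not pass.

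Proteins of the MYC family are transcription factors that work as pairs with MAX, a small partner that binds the same E-box letters in DNA. MXD1, MXI1, MXD3, MXD4 and MNT compete for MAX and bring corepressors to those sites, and MGA pairs with MAX inside a Polycomb complex, PRC1.6. In fibroblasts MYC is an early serum-response gene, and MAX is known to change from MYC to MXD partners as cells leave the cell cycle and differentiate.

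The cells were primary mouse embryonic fibroblasts lacking Cry2, a gene for a repressor of the circadian clock, and every group, controls included, stably carried introduced c-MYC. Beside c-MYC they carried one of 3 changed CRY2 proteins (D325H, S510L, F428D), wild-type CRY2 (WT) or an empty vector (EV). Each construct was grown at a high density (500 cells per well, collected on day 11) and a low density (150 cells per well, day 14), in 3% oxygen and 15% serum, so density and day cannot be told apart. Each of the 10 groups had 3 biological replicates of 2 pooled wells. Whether replicates of a construct came from separately made lines is not stated, so p-values cover the spread between these samples only. No group lacked the introduced c-MYC, and the sources used here do not say whether its reads are counted under Myc.

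The values are TPM, which scale for transcript length and to a fixed sum, so they do not show how many reads were mapped in a library, and the precision rests on the 3 replicates. Genes above 0 numbered 15910 in F428D high replicate 2 and 16258 in D325H high replicate 3, the lowest libraries, against a median of 19002.5. Cry2 stood at 13.2 to 161 TPM in the libraries with a CRY2 construct, lowest with S510L, and at 3.82 to 5.55 TPM with EV. All 10 fibroblast markers averaged at least 1 TPM, and so did all 4 chondrocyte, all 4 neural and 3 of 4 adipocyte markers. Fewer did of the epithelial (2 of 6), skeletal muscle (1 of 4) and macrophage and leukocyte markers (1 of the 4 with a row), and of the 4 endothelial markers none did. The median summed level was 12019 TPM for fibroblast, 757 TPM for chondrocyte, 68.2 TPM for adipocyte and 44.7 TPM for neural markers. Trp53, the gene of p53, was at 15.4 to 131 TPM (median 66.2) in the 12 D325H and S510L libraries, against 214 to 330 TPM (median 266) in the 18 libraries with F428D, WT or EV. Summed chondrocyte markers, 4 of 4 called higher with S510L at both densities, reached 1450 to 2175 TPM in S510L high and 4219 to 4688 TPM in S510L low, against 329 to 500.2 TPM in WT high and 334.5 to 729 TPM in WT low. Summed fibroblast markers were at 13110 to 16500 TPM in D325H low and 13600 to 14590 TPM in S510L low, against 9516 to 11910 TPM in WT low. The part of Trp53, Cry2 level or these markers in the network results below was not tested.

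Promoter windows of 300 bases (250 before and 50 after the RefSeq start, build GRCm38.p6) were searched for every member but Myc, which had no window. They are given for 4 members: the 3 whose window holds the E-box CACGTG, which MYC-MAX and MXD-MAX pairs bind, and Mxd3. The window of Mxd3, the one member called with both D325H and S510L against WT, holds none. Capitals mark CACGTG, whose letters read the same on both strands. The windows are chr12:76962199-76962498 (minus strand) for Max, chr11:74830674-74830973 (plus strand) for Mnt, chr5:34187661-34187960 (minus strand) for Mxd4 and chr13:55329682-55329981 (minus strand) for Mxd3.
Max: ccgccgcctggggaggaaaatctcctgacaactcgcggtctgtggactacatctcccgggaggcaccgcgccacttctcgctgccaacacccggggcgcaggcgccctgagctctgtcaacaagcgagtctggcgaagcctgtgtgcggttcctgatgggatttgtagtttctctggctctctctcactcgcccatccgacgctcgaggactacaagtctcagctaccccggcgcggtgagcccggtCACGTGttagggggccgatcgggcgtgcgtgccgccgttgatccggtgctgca
Mnt: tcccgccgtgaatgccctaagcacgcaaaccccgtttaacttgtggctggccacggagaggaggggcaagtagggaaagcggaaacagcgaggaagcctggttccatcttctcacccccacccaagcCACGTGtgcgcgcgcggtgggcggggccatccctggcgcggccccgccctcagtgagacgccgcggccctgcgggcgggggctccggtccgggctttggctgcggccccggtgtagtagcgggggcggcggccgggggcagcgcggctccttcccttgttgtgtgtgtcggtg
Mxd4: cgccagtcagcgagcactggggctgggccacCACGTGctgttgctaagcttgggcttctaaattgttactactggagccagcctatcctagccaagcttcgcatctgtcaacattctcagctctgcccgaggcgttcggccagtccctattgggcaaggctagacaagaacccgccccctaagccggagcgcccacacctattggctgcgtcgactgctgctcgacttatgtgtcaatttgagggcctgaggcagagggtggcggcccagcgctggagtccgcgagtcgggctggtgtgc
Mxd3: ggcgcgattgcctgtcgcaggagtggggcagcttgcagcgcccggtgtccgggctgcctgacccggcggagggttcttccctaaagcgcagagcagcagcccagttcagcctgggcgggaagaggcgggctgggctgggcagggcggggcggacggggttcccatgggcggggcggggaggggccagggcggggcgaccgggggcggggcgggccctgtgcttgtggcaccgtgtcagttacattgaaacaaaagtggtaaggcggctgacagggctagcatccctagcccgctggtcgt
Counted from the start as 0, the E-box begins at -3 in Max, -123 in Mnt and -219 in Mxd4. The Max offset holds for the RefSeq start only, as the bases checked after that start occur in no GENCODE M21 transcript of Max. No window of Mga, Mxd1, Mxd3, Mxi1, Mycl or Mycn holds these letters, which is no statement on binding. Of 32851 RefSeq windows of this length, 2349 (7.15%) hold CACGTG.

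The network genes differed widely in level. On the TPM scale, Max averaged 102 TPM over the 30 libraries and Mxd4 93.1 TPM. Next came Myc at 41.9, Mga at 27.6, Mnt at 20.0 and Mxd3 at 15.4 TPM, then Mxd1 at 5.43 and Mycl at 0.661 TPM. Mycn, the form of MYC known from neural tissue, was listed at 0 in 25 of the 30 libraries and reached at most 0.0318 TPM. Myc, Max, Mxd3, Mxd4, Mnt and Mga were above 5 TPM in every library, so the differences below are among expressed genes except for Mycl.

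**Figure D1:**
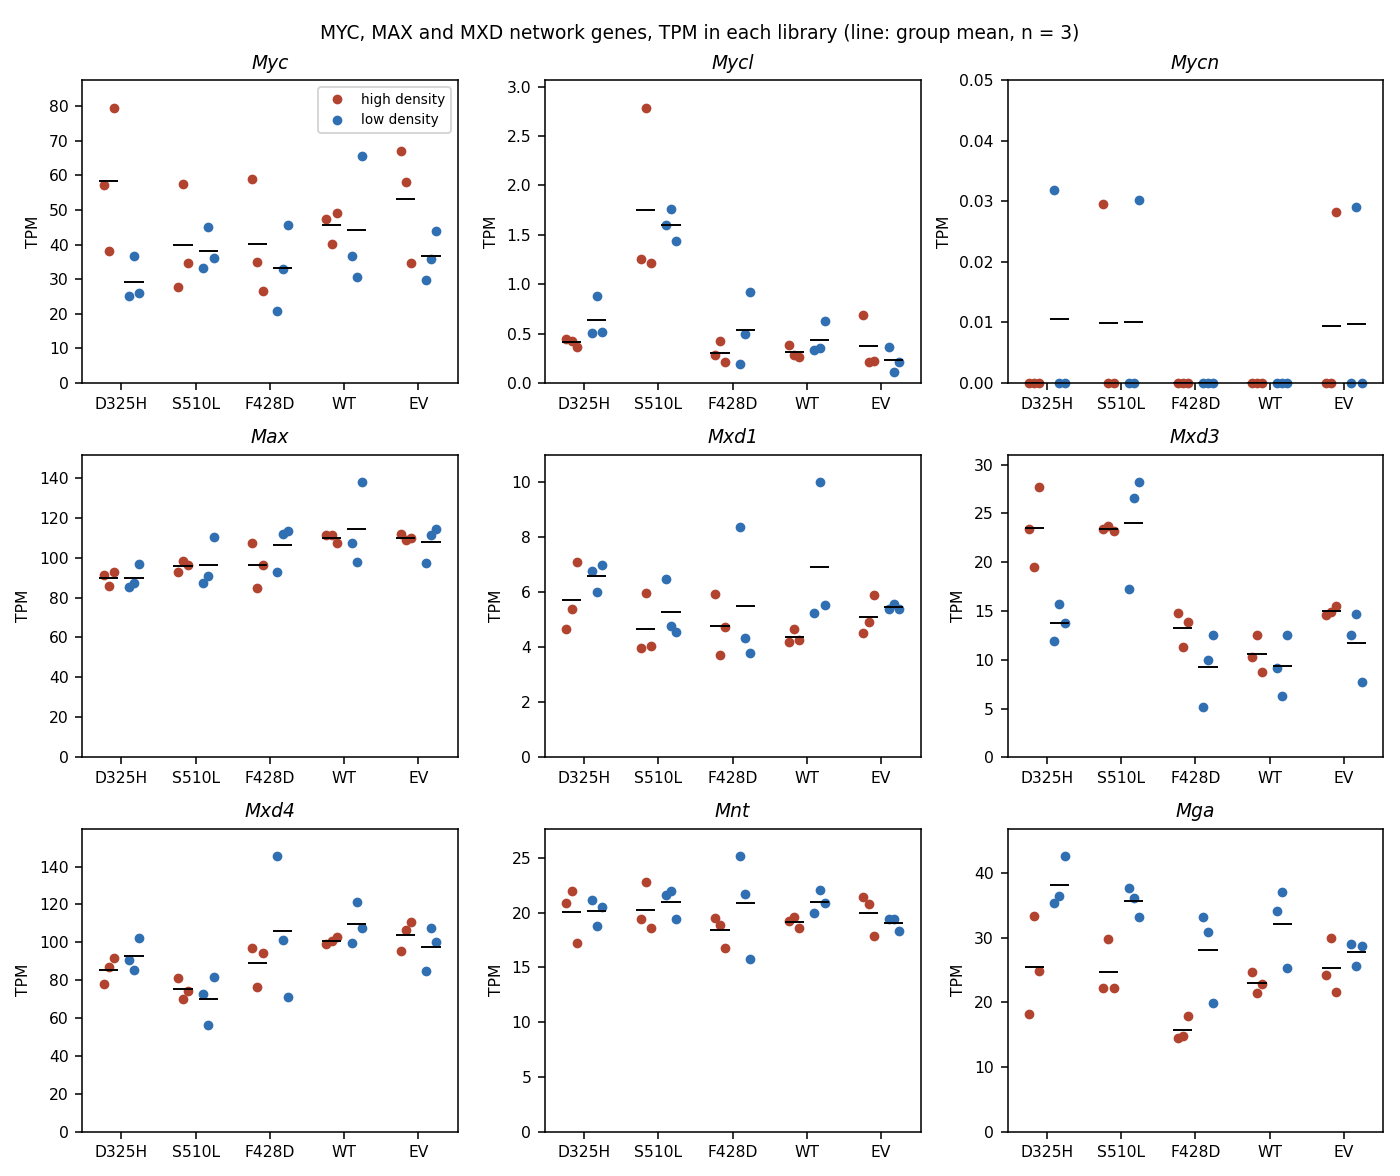
TPM of the 9 network genes with a row, for each of the 30 libraries (points; red, high density; blue, low density) by construct, with the group mean of 3 libraries as a line; each panel has its own vertical axis from 0. Mxd3 is highest with S510L, and with D325H at high density, Mxd4 is lowest with S510L, and the Mycl libraries at or above 1 TPM are the 6 S510L libraries.

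With S510L, Mxd3 rose and Mxd4 fell against WT at low density, and Mxd3 rose at high density. With D325H, Mxd3 rose at high density and Max fell at low density, 1 of 8 members each. All genes called there made up 10.2% at high and 29% at low density, against 9.17% and 23.3% with S510L. Of these calls, that of Mxd3 with S510L at low density alone held in every alternative run. F428D against WT and WT against EV gave no called difference in any member, where at most 0.305% of all genes were called. Myc was called in none of the 20 comparisons. In these bulk samples, fewer cells of a type and less RNA per cell cannot be told apart.

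A gene was called at a Benjamini-Hochberg (BH) adjusted p under 0.05 over all 14093 genes, from limma on log2(TPM + 1). Differences are given on that scale with the standard error (SE). In D325H against WT, 1 of 8 members was called at high density (Mxd3), where 10.2% of all genes were called, and 1 of 8 at low density (Max), where 29% were. In S510L against WT, 2 of 8 were called at high density (Mxd3 and Mycl; 9.17% of all genes) and 3 of 8 at low density (Mxd3, Mxd4 and Mycl; 23.3% of all genes). Mycl passed the filter only through the S510L libraries, so its calls with S510L add no support to these counts. In F428D against WT, 0 of 8 were called at either density, with 0.0639% of all genes called at high density and 0.0142% at low density. At an unadjusted p under 0.05, F428D gave 1 member at high density (Mga) and 0 at low density. In WT against EV, 0 of 8 were called at either density, and 0 at an unadjusted p under 0.05, with 0.0284% of all genes called at high and 0.305% at low density. The D325H, S510L and F428D comparisons share the WT libraries.

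**Figure D2:**
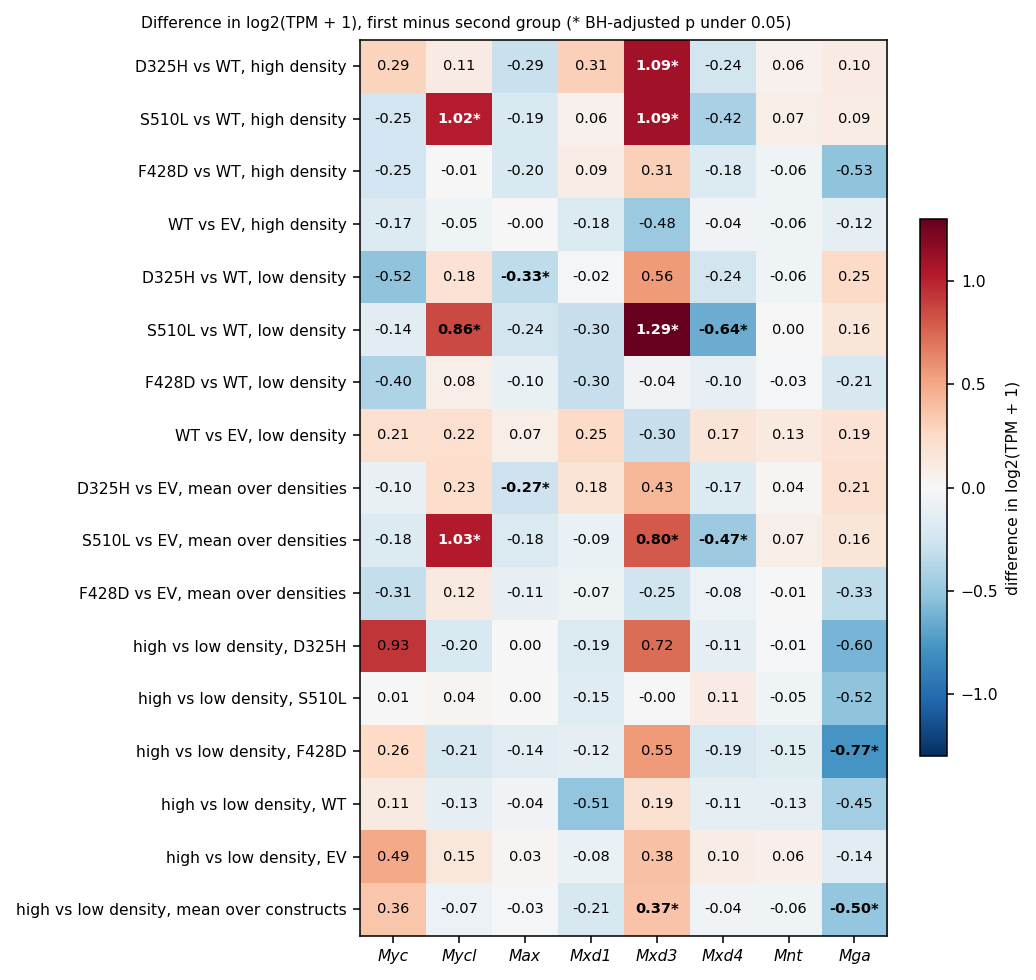
Differences in log2(TPM + 1) of the 8 tested members (columns) in 17 comparisons (rows), first group minus second, coloured from blue (lower) to red (higher); a star marks a BH-adjusted p under 0.05 in limma. Stars stand in the columns of Mycl, Max, Mxd3, Mxd4 and Mga, and none in those of Myc, Mxd1 and Mnt.

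Myc (GRCm38 chr15:61985391-61990374, plus strand, GENCODE M21) is the transcription factor that drives growth and ribosome production. At high density Myc was at 57.1, 38.1 and 79.5 TPM with D325H, 27.6, 57.4 and 34.7 TPM with S510L, and 58.8, 35.1 and 26.6 TPM with F428D. The WT high libraries held 47.4, 40.2 and 49.2 TPM and the EV high libraries 67.2, 58.0 and 34.6 TPM. All 5 groups overlapped, and replicates of one group spread as widely as the groups did. At low density Myc was at 25.1, 36.8 and 26.0 TPM with D325H, 33.4, 45.1 and 36.02 TPM with S510L, and 20.8, 33.0 and 45.5 TPM with F428D, against 36.7, 30.6 and 65.6 TPM with WT and 29.9, 35.9 and 43.9 TPM with EV. These groups overlapped too. The median SD of Myc within a group was 0.506 on the log2 scale, against 0.110 for Max and 0.101 for Mnt.

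The comparisons of Myc therefore had an SE of 0.34, wider than for any other tested member. Myc differed by -0.52 ± 0.34 in D325H against WT at low density (limma, adjusted p = 0.256) and by 0.29 ± 0.34 at high density (adjusted p = 0.627), or 0.04 (0.967) without D325H high replicate 3, the library of highest Myc. The difference between WT and EV was -0.17 ± 0.34 at high and 0.21 ± 0.34 at low density (limma, adjusted p = 0.953 and 0.998). Group means ran in the order 58.2 TPM (D325H high), 53.3 (EV high), 45.6 (WT high), 44.3 (WT low), 40.2 (F428D high), 39.9 (S510L high), 38.2 (S510L low), 36.6 (EV low), 33.1 (F428D low) and 29.3 TPM (D325H low). No neighbours in that order stood apart by more than the larger of their SDs. With D325H the high-density libraries, at 38.1 TPM or more, did not overlap the low-density libraries, at 36.8 TPM or less. That difference was 0.93 ± 0.34 and was not called (limma, adjusted p = 0.107), but it was called without D325H high replicate 2, the lowest of the 3 (1.20, adjusted p = 0.0436).

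Mycl (GRCm38 chr4:122995652-123002485, plus strand) encodes a further MYC paralogue, L-MYC. It was at 1.26, 2.79 and 1.21 TPM in S510L high and 1.602, 1.76 and 1.44 TPM in S510L low, and below 1 TPM in each of the other 24 libraries. WT held 0.390, 0.285 and 0.259 TPM at high density and 0.336, 0.353 and 0.626 TPM at low density. Mycl thus passed the filter only through S510L, the group where it is high, so its call there is not independent of the filter and adds no support. The S510L difference from WT was 1.02 ± 0.20 at high density (limma, adjusted p = 0.00227) and 0.86 ± 0.20 at low density (adjusted p = 0.00305). At such low TPM these values move with the pseudocount, from 0.34 (pseudocount 5) to 2.08 (pseudocount 0.1) at high density and from 0.28 to 1.70 at low density. Mycl remained the lowest of the tested network genes in every group mean.

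Max (GRCm38 chr12:76937269-76962201, minus strand) encodes the shared partner of the whole network. At high density Max was at 91.2, 85.7 and 92.8 TPM with D325H, 92.7, 98.5 and 96.4 TPM with S510L and 107, 84.7 and 96.5 TPM with F428D, against 111, 111 and 107 TPM with WT and 112, 109 and 109.7 TPM with EV. At low density it was at 85.1, 87.4 and 96.9 TPM with D325H, 87.3, 90.7 and 110.2 TPM with S510L and 92.9, 112 and 113 TPM with F428D. WT low held 107, 97.9 and 138 TPM and EV low 97.4, 111 and 114 TPM. All 6 D325H libraries lay below all WT and all EV libraries, if narrowly at low density.

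In D325H against WT, Max was lower by -0.33 ± 0.11 at low density (limma, adjusted p = 0.0271) and differed by -0.29 ± 0.11 at high density, which was not called (adjusted p = 0.0965). The low-density call ended without WT low replicate 3 (-0.19, adjusted p = 0.203), D325H low replicate 1 (-0.30, 0.109) or D325H low replicate 2 (-0.31, 0.0863). It also ended with quantile normalization (adjusted p = 0.0659), median-ratio scaling (0.0642) and a fit of the compared groups alone (0.209). Over both densities D325H against EV gave 1 called member of 8, Max again, where 25.3% of all genes were called. Max averaged 89.9 TPM with D325H and 109 TPM with EV, a difference of -0.27 ± 0.08 (limma, adjusted p = 0.0135). With S510L against WT, Max stood at -0.19 ± 0.11 at high and -0.24 ± 0.11 at low density (adjusted p = 0.294 and 0.12). The low-density difference was called without WT low replicate 2 (-0.35, adjusted p = 0.0348) or S510L low replicate 3 (-0.34, 0.0354). Fitted on the compared groups alone, the high-density differences of Max were called with D325H (adjusted p = 0.0338) and S510L (0.0392).

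Mxd3 (GRCm38 chr13:55325168-55329823, minus strand) encodes a MAX partner of the repressive arm known for its link to the S phase of cycling cells. At high density it was at 23.3, 19.5 and 27.7 TPM with D325H, 23.4, 23.7 and 23.2 TPM with S510L and 14.8, 11.3 and 13.9 TPM with F428D, against 10.3, 12.5 and 8.78 TPM with WT and 14.6, 14.9 and 15.5 TPM with EV. The 6 D325H and S510L libraries all lay above all other libraries at this density. At low density Mxd3 was at 12.0, 15.7 and 13.8 TPM with D325H, 17.2, 26.6 and 28.2 TPM with S510L and 5.16, 10.0 and 12.6 TPM with F428D, against 9.19, 6.27 and 12.5 TPM with WT and 12.6, 14.7 and 7.75 TPM with EV. Here the S510L libraries alone stood above the rest, and D325H overlapped EV and WT.

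Against WT, Mxd3 rose with S510L by 1.09 ± 0.25 at high density (limma, adjusted p = 0.0083) and by 1.29 ± 0.25 at low density (adjusted p = 0.000775). With D325H it rose by 1.09 ± 0.25 at high density (limma, adjusted p = 0.00988), and the low-density difference of 0.56 ± 0.25 was not called (adjusted p = 0.103), but was without WT low replicate 3 (0.77, adjusted p = 0.0428). D325H high replicate 3, a library with few genes above 0, held the highest Mxd3 of its density, and without it the D325H difference was 0.97 (adjusted p = 0.0336). Both high-density calls ended without WT high replicate 3, at 0.97 for D325H (adjusted p = 0.0578) and 0.98 for S510L (adjusted p = 0.0506). The low-density call with S510L held in every alternative run, at 1.02 to 1.51. Over both densities S510L against EV called 3 of 8 members (Mxd3, Mxd4 and Mycl), where 18.7% of all genes were called. Mycl adds no support to that count, as it passed the filter only through S510L. Mxd3 averaged 23.7 TPM with S510L and 13.3 TPM with EV, a difference of 0.80 ± 0.18 (limma, adjusted p = 0.00268). D325H against EV gave 0.43 ± 0.18 for Mxd3 (adjusted p = 0.0805), called without EV low replicate 2 (0.52, adjusted p = 0.0471). At high density the WT libraries lay below all EV libraries, at -0.48 ± 0.25, not called (adjusted p = 0.743).

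The order of Mxd3 group means was 24.0 TPM (S510L low), 23.5 (D325H high), 23.4 (S510L high), 15.0 (EV high), 13.8 (D325H low), 13.3 (F428D high), 11.7 (EV low), 10.5 (WT high), 9.32 (WT low) and 9.24 TPM (F428D low). The first 3 groups lay within their SDs of each other, and the step from S510L high to EV high exceeded the SDs on both sides. Mxd3 shares 105 of its 2369 exon bases with Prelid1, a mitochondrial protein gene on the opposite strand that averaged 510 TPM, and whether the counting used strand is not given. Prelid1 itself differed by 0.17 and 0.08 in S510L against WT at high and low density and by 0.13 in D325H high (limma, adjusted p = 0.147, 0.461 and 0.275).

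Mxd4 (GRCm38 chr5:34173883-34187720, minus strand) encodes a repressive MAX partner, the most abundant of the 4 with a row (Mxd1, Mxd3, Mxd4 and Mnt). At high density it was at 78.2, 86.9 and 91.7 TPM with D325H, 81.0, 70.2 and 74.5 TPM with S510L and 97.0, 76.1 and 94.6 TPM with F428D, against 98.9, 101 and 103 TPM with WT and 95.3, 106 and 111 TPM with EV. At low density it was at 90.4, 85.5 and 102 TPM with D325H, 72.5, 56.6 and 81.8 TPM with S510L and 145, 101 and 71.3 TPM with F428D, against 99.8, 121 and 108 TPM with WT and 84.6, 108 and 100.002 TPM with EV. The S510L libraries lay below all WT and EV libraries at both densities, and so did the D325H libraries at high density. The F428D low libraries spread over the whole range.

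In S510L against WT, Mxd4 was lower by -0.64 ± 0.17 at low density (limma, adjusted p = 0.008), and the high-density difference of -0.42 ± 0.17 was not called (adjusted p = 0.124). The low-density call ended without S510L low replicate 2, the lowest library (-0.50, adjusted p = 0.0679), and with the compared groups fitted alone (0.0536). At high density 2 alternatives called it: median-ratio scaling (-0.53, adjusted p = 0.0392) and the compared groups alone (0.00787). Against EV over both densities, Mxd4 averaged 72.8 TPM with S510L and 101 TPM with EV, a difference of -0.47 ± 0.12 (limma, adjusted p = 0.00732) that held in every alternative, at -0.55 to -0.40. D325H gave -0.24 ± 0.17 against WT at both densities, not called (adjusted p = 0.394 at high and 0.31 at low density).

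**Figure D3:**
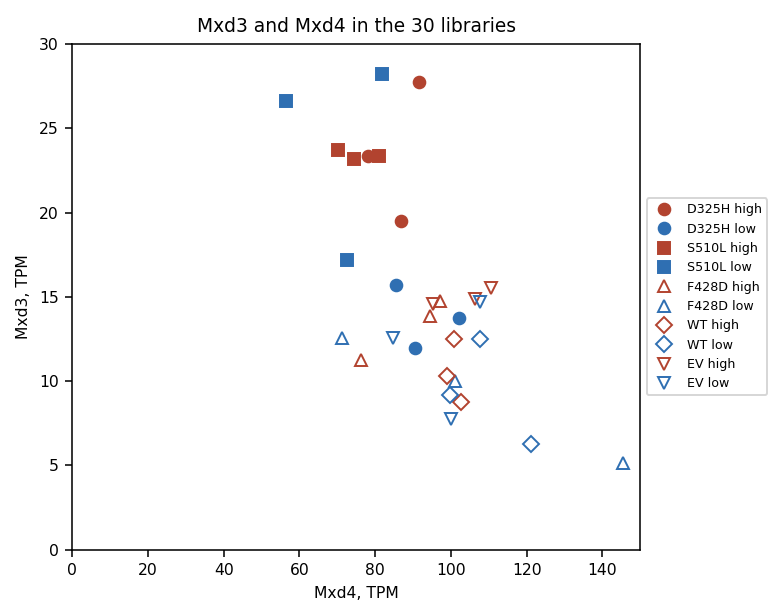
Mxd3 TPM (vertical axis) against Mxd4 TPM (horizontal axis) in the 30 libraries, 1 point each; filled symbols, D325H and S510L; open symbols, F428D, WT and EV; red, high density; blue, low density. S510L libraries lie at the upper left, with Mxd3 of 17.2 TPM or more and Mxd4 of 81.8 TPM or less. D325H high replicate 1, with Mxd3 at 23.3 TPM and Mxd4 at 78.2 TPM, lies within these bounds too.

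An F test of equal construct means called 2 of 8 members at high density (Mxd3, adjusted p = 0.00836, and Mycl, 0.00235), where 21.3% of all genes were called. Mga missed the threshold there (adjusted p = 0.0511) and passed it without D325H high replicate 1 (0.0192). At low density the F test called 3 of 8 (Mxd3, adjusted p = 0.00149; Mxd4, 0.0332; Mycl, 0.0021), where 35% of all genes were called. The Mxd4 call at low density ended without WT low replicate 2 (0.056), S510L low replicate 1 (0.0753) or S510L low replicate 2 (0.224), with no filter (0.0644) and with the low-density groups fitted alone (0.206), which also ended that of Mxd3 (0.052). Max, not called there, was called without WT low replicate 2 (0.0295), S510L low replicate 3 (0.0395) or F428D low replicate 1 (0.0432). Mycl, which passed the filter only through S510L, adds no support to the F test counts at either density. A test of whether construct effects differed between the densities called 0 of 8 members, and 0 at an unadjusted p under 0.05, where 0.071% of all genes were called (limma). Its adjusted p was 0.78 for Mxd3 and 0.885 for Mxd4, so the difference in calls between the densities for these genes is no tested difference.

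Mxd1 and Mnt, both repressive partners of MAX, were called in no comparison. Mxd1 (GRCm38 chr6:86647042-86669161, minus strand) ran from 3.70 TPM (F428D high replicate 2) to 9.98 TPM (WT low replicate 2). Group means of Mxd1 lay between 4.36 TPM (WT high) and 6.92 TPM (WT low), and 5.71 TPM in D325H high against 4.36 in WT high was a difference of 0.31 ± 0.23 (limma, adjusted p = 0.401). Mnt (GRCm38 chr11:74830920-74845725, plus strand), known as a broadly expressed antagonist of MYC, varied least of the 8: its libraries ran from 15.8 to 25.1 TPM and its group means from 18.4 to 21.0 TPM. The largest construct difference of Mnt was 0.13 ± 0.12, in WT against EV at low density (limma, adjusted p = 0.957).

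Mga (GRCm38 chr2:119897228-119969581, plus strand) encodes the very large MAX partner with a second, T-box DNA-binding domain. At high density Mga was at 18.1, 33.4 and 24.8 TPM with D325H, 22.2, 29.8 and 22.2 TPM with S510L and 14.4, 14.8 and 18.0 TPM with F428D, against 24.7, 21.5 and 22.8 TPM with WT and 24.2, 30.0 and 21.6 TPM with EV. At low density it was at 35.4, 36.4 and 42.6 TPM with D325H, 37.7, 36.2 and 33.2 TPM with S510L and 33.3, 30.9 and 20.0 TPM with F428D, against 34.1, 37.1 and 25.3 TPM with WT and 29.1, 25.7 and 28.7 TPM with EV. In the D325H, S510L, F428D and WT cells the high-density libraries all lay below the low-density ones, while those of EV overlapped.

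Averaged over the 5 constructs, high against low density called 2 of 8 members, Mga lower and Mxd3 higher, where 20.1% of all genes were called. Mga averaged 22.8 TPM at high and 32.4 TPM at low density, a difference of -0.50 ± 0.09 (limma, adjusted p = 0.000527), against a median of -0.06 over all genes. The call held in every alternative, at -0.54 to -0.41. Cell type markers moved with density too: 3 of 4 chondrocyte markers were lower at high density (median -1.14), and 6 of 10 fibroblast markers were lower and 1 higher (median -0.45). Summed chondrocyte markers were at 1450 to 2175 TPM in S510L high and 226 to 500.2 TPM in the other high-density groups, against 4219 to 4688 TPM in S510L low and 334.5 to 1947 TPM in the other low-density groups. Summed fibroblast markers were at 9746 to 13840 TPM at high and 9516 to 16500 TPM at low density, and the part of either in the density results was not tested. Mxd3 averaged 17.2 TPM at high and 13.6 TPM at low density (0.37 ± 0.11, limma, adjusted p = 0.0257), a call that ended without WT low replicate 2 (0.0511) and with no filter (0.0504). Prelid1, its neighbour on the other strand, also differed with density, by 0.15 (limma, adjusted p = 0.00285). Myc stood at 47.4 TPM at high and 36.3 TPM at low density, 0.36 ± 0.15, and was not called (adjusted p = 0.0916). It was called without WT low replicate 3 (0.0342), F428D low replicate 3 (0.0427) or D325H high replicate 2 (0.0491).

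Within single constructs the density comparison called Mga with F428D alone, 1 of 8 members where 1.04% of all genes were called. Mga averaged 15.7 TPM in F428D high and 28.1 TPM in F428D low (-0.77 ± 0.19, limma, adjusted p = 0.0487), against a median over all genes of -0.11. Leaving out any 1 of 5 of the 6 libraries ended that call (adjusted p = 0.082 to 0.216), the exception being F428D low replicate 3 (-0.99). Without the F428D library of fewest genes above 0 (F428D high replicate 2) it was -0.73 (adjusted p = 0.176). The limma counts with D325H (4.11% of all genes), S510L (1.04%), WT (0%) and EV (0.0781%) were 0 of 8 members each, with 3, 1, 2 and 0 members at an unadjusted p under 0.05. Mga with D325H differed by -0.60 ± 0.19 (adjusted p = 0.0706; -0.81 and 0.0148 without D325H high replicate 2) and with S510L by -0.52 ± 0.19 (0.167). F428D against EV over both densities called 0 of 8 members and 1 at an unadjusted p under 0.05, Mga, at -0.33 ± 0.13 (limma, adjusted p = 0.134), where 6.17% of all genes were called. At high density the F428D libraries of Mga lay below all WT libraries, at -0.53 ± 0.19, which was not called (adjusted p = 0.866).

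As TPM scale for length, levels of the partners can be set beside each other, as transcripts and not as proteins. Mxd1, Mxd3, Mxd4 and Mnt together summed to 103 to 184 TPM per library (median 134), and this sum exceeded Myc in all 30 libraries, by 1.81 times (D325H high replicate 3) to 8.86 times (F428D low replicate 1), median 3.45. Max was 1.17 to 4.47 times Myc (median 2.61) and 0.374 to 0.667 times the sum of all its measured partners, Myc, Mycn, Mycl and Mga included. Mxi1, not analysed here, is in neither sum. Whether reads of the introduced c-MYC are counted under Myc is not given, so the ratios may not cover all MYC transcripts. Mxd4 made up 57.2% to 63.4% of the Mxd and Mnt sum in S510L high and 51.5% to 61.5% in S510L low, against 73.3% to 76.5% in WT high and 73.5% to 75.9% in WT low. The share of Mxd3 was 18.3% to 19.3% in S510L high and 14.6% to 24.2% in S510L low, against 6.54% to 9.10% in WT high and 3.93% to 8.53% in WT low. D325H high stood near S510L, with Mxd4 at 61.5% to 65.0% and Mxd3 at 14.6% to 19.3%. In D325H low Mxd4 made up 67.9% to 71.2% and Mxd3 9.18% to 12.5%. These shares restate the Mxd3 and Mxd4 values and were not tested.

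**Figure D4:**
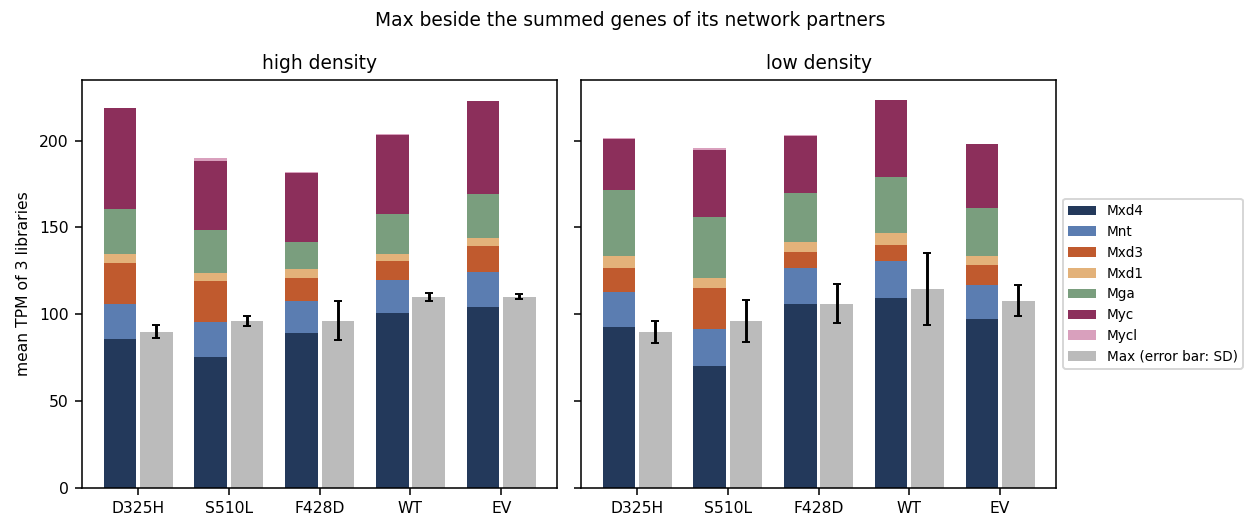
Mean TPM of 3 libraries for each construct at high density (left) and low density (right). Stacked bars are the tested network partners of Max, and grey bars are Max, with the SD over 3 libraries. Mxd4 is the largest part of every stack, Mxd3 is thicker with S510L and in D325H high, and Max stands below the stack in all 10 groups.

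Among genes whose levels ran most like each member over the 30 libraries (Pearson's r of log2(TPM + 1), 9931 genes compared), Mxd3 was followed by Cdkn3 (0.932), Rfc4 (0.911) and Nusap1 (0.902). For Mxd4 these were Dzip1 (0.879), Rxra (0.858) and Tnfrsf1a (0.853), and for Max Tmem69 (0.868), Fitm2 (0.860) and Dhx33 (0.851). Mga ran with Ankrd17 (0.943), Tet3 (0.937) and Kirrel (0.934). The likeness was lower for Mxd1, led by Pcmtd2 (0.780), for Mnt, led by Fam172a (0.750), and for Myc, led by Mrpl10 (0.697). Among members, Mxd3 and Mxd4 ran opposite ways (r = -0.698) and Mxd1 ran with Mga (0.529). The points are libraries that share constructs and densities, and these values are descriptions without a test.

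Of the partners of MGA in PRC1.6, a Polycomb complex that silences germline and E2F-type genes, 10 of 11 listed had a row and were tested. With S510L against WT, 5 were called higher and 0 lower at high density (median 0.36, all genes 0.10; 7.39% of all genes higher), and 5 higher and 1 lower at low density (median 0.27, all genes 0.04; 15% of all genes higher). Cbx1, a chromodomain protein, rose to 76.9 TPM in S510L high, against 49.6 TPM in WT high (0.62 ± 0.10, limma, adjusted p = 0.000415), and Rybp, an adaptor of the complex, to 32.1 TPM in S510L low, against 22.1 TPM in WT low (0.52 ± 0.09, adjusted p = 0.000366). The count of higher genes was 3 without WT high replicate 1 or with quantile normalization at high density, and 3 without S510L low replicate 2 and 1 with the compared groups fitted alone at low density. D325H gave 1 higher and 0 lower at high density (5.46% of all genes higher, 4.73% lower). Its low-density counts were 1 higher and 2 lower, near the shares of all genes (14.8% higher, 14.1% lower). Tfdp1, the dimer partner of E2F proteins, fell to 139 TPM in D325H low, against 247 TPM in WT low (-0.90 ± 0.21, limma, adjusted p = 0.00256). F428D against WT called 0 of 10 at both densities (0.0639% of all genes called at high and 0.0142% at low density). F428D against EV called 4 lower (4.58% of all genes lower), among them Cbx1 at 46.6 TPM with F428D and 58.4 TPM with EV (-0.32 ± 0.07, limma, adjusted p = 0.00924).

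Of 14 tested cofactors that network proteins bring to DNA, D325H against WT called 0 at high density and 4 lower at low density (14.1% of all genes lower), among them the ATPase Ruvbl1 (70.7 against 111 TPM, -0.63 ± 0.17, limma, adjusted p = 0.00756) and the histone acetyltransferase Kat2a (46.9 against 74.7 TPM, -0.65 ± 0.17, adjusted p = 0.00667). That count was 0 without D325H low replicate 1, 7 without D325H low replicate 3 and 0 with the compared groups alone. D325H against EV called 5 of 14 lower (13.7% of all genes lower), a count of 1 without D325H low replicate 1. S510L against WT called 1 of 14 at high density, the deacetylase Hdac2 (129 against 98.2 TPM, 0.39 ± 0.07, limma, adjusted p = 0.00141). That is near the 7.39% of all genes called higher there. It called 0 at low density, where 23.3% of all genes were called. Mlx, the MAX-like partner of the glucose-sensing arm, was at 19.8 TPM in D325H high and 28.7 TPM in WT high (-0.51 ± 0.12, limma, adjusted p = 0.0118), a call that ended without WT high replicate 3, and Mlxip was called in none of the WT comparisons.

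Of 15 tested genes for turnover of the MYC protein, D325H against WT called 3 at low density, all lower (14.1% of all genes lower), and 0 at high density. The 3 became 1 without WT low replicate 1, 6 without D325H low replicate 3 and 0 with the compared groups alone. S510L called 1 of 15 at high and 2 of 15 at low density, all higher, near the shares of all genes called higher there (7.39% and 15%). The high-density count was 0 in 5 of the 6 fits with 1 library left out, the exception being S510L high replicate 3, and 5 with the compared groups alone, and the low-density count was 1 without WT low replicate 3, S510L low replicate 1 or S510L low replicate 2. At low density these held the phosphatase subunit Ppp2r5a at 48.5 TPM in S510L low and 35.8 TPM in WT low (0.44 ± 0.12, adjusted p = 0.00836). Of 8 tested genes that act on the MYC locus, S510L called 2 higher at each density, Ctnnb1 and E2f1 (7.39% of all genes higher at high and 15% at low density). At high density that count was 1 in each of the 6 fits with 1 library left out. At low density it was 1 without WT low replicate 3, S510L low replicate 1 or S510L low replicate 2, and 0 with the compared groups alone. D325H called 1 higher and 2 lower at low density (14.8% of all genes higher, 14.1% lower) and 0 at high density (10.2% of all genes called). The count of lower genes at low density ran from 0 to 3 over left-out libraries. E2f1, which drives entry into S phase, was at 32.0 TPM in S510L low and 18.9 TPM in WT low (0.74 ± 0.14, adjusted p = 0.000685).

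Genes known to be activated by MYC fell with D325H at low density. Myc itself differed there by -0.52 ± 0.34, in the same direction, and was not called (limma, adjusted p = 0.256). Whether reads of the introduced c-MYC are counted under Myc is not given, and the part of Myc in this fall was not tested. Of 27 listed and tested, 25 were called lower and 0 higher in D325H against WT at low density (median -0.79, all genes -0.00383), where 14.1% of all genes were called lower. The count was 13 without D325H low replicate 1 and 0 with the compared groups fitted alone. Ccnd2, cyclin D2, averaged 133 TPM in D325H low and 316 TPM in WT low (-1.31 ± 0.20, limma, adjusted p = 0.000102), and Npm1, a nucleolar chaperone, 1776 and 2920 TPM (-0.74 ± 0.16, adjusted p = 0.00173). At high density D325H called 3 lower, Ccnd2, Bop1 and Cad (median -0.41, all genes 0.01; 4.73% of all genes lower), a count of 0 without WT high replicate 3. S510L called 1 of 27 lower at high density, Ccnd2 (156 against 268 TPM, -0.78 ± 0.20, limma, adjusted p = 0.0156), where 1.78% of all genes were called lower. With S510L at low density 3 of 27 were called lower (median -0.39, all genes 0.04), where 8.3% of all genes were. That count of 3 ran from 1 to 10 as single libraries were left out. F428D against WT and WT against EV called 0 of 27 at both densities, where 0.0142% to 0.305% of all genes were called. The list median with F428D was -0.35 at low density (all genes -0.02) and -0.115 at high density (all genes -0.06). In WT against EV it was 0.01 at low and 0.07 at high density.

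Of 10 listed genes that MYC is known to repress, D325H called 6 higher and 1 lower at high density (median 0.83, all genes 0.01; 5.46% of all genes higher) and 7 higher and 1 lower at low density (median 0.75; 14.8% of all genes higher). The lower one in both cases was Cdkn1a, the p21 gene and a target of p53. Cdkn1a averaged 111 TPM in D325H low and 581 TPM in WT low (-3.37 ± 0.58, limma, adjusted p = 0.000294). The D325H low libraries spread widely, at 27.3, 21.0 and 284 TPM. Cdkn1b, the p27 cell cycle inhibitor, was at 76.3 TPM in D325H low and 33.0 TPM in WT low (1.21 ± 0.20, adjusted p = 0.000199). S510L called 1 higher at high density, Cdkn1b (7.39% of all genes higher), and 6 higher and 1 lower at low density (15% of all genes higher), with Gadd45b at 113 TPM in S510L low and 41.1 TPM in WT low (1.45 ± 0.25, adjusted p = 0.000241). The lower gene with S510L was also Cdkn1a. The high-density count with S510L was 0 without WT high replicate 2, WT high replicate 3 or S510L high replicate 2 and 6 with the compared groups alone, and the low-density count of higher genes was 2 with the compared groups alone. F428D against WT and WT against EV called 0 of 10 at both densities, where 0.0142% to 0.305% of all genes were called. The list median with F428D was 0.19 at low and -0.00937 at high density. In WT against EV it was -0.23 at low and -0.39 at high density. The count of higher genes with D325H was 3 without D325H high replicate 2 at high density, and 5 to 8 over left-out libraries and 1 with the compared groups alone at low density.

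**Figure D5:**
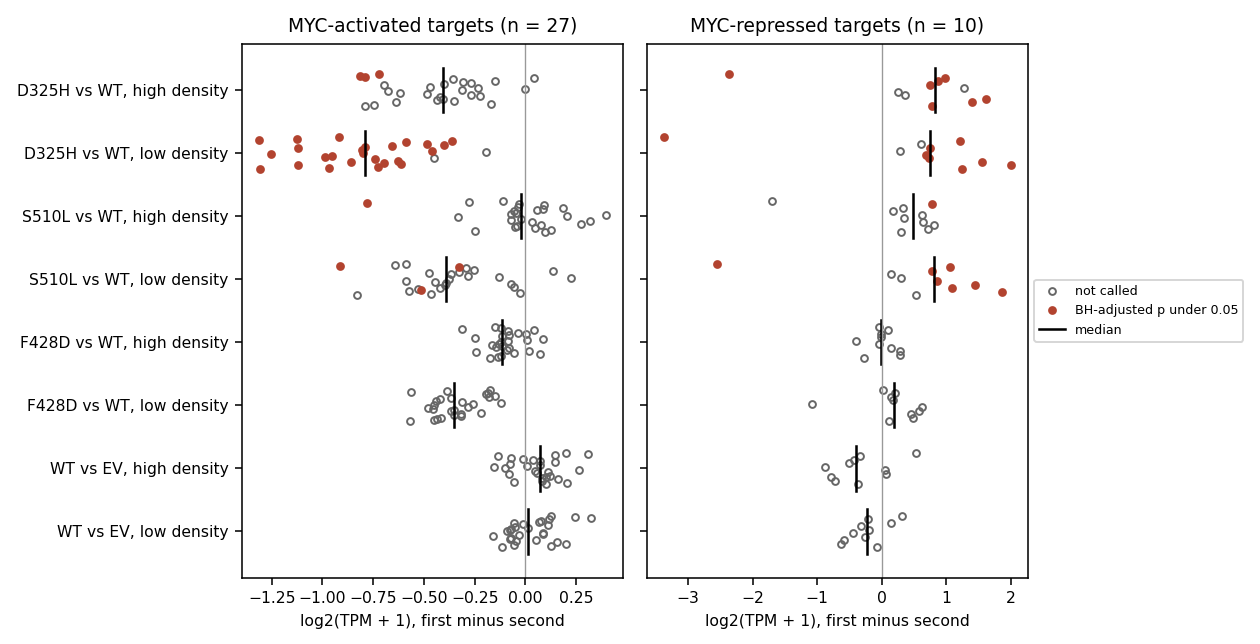
Differences in log2(TPM + 1) of 27 genes known to be activated by MYC (left) and 10 known to be repressed (right) in 8 comparisons, first group minus second; 1 point per gene, filled where the BH-adjusted p is under 0.05 in limma, with the list median as a bar. The 25 filled points for D325H against WT at low density lie left of 0, and the far-left filled points on the right are Cdkn1a.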

How the data were processed

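RNA of 30 cultures of mouse embryonic fibroblasts was sequenced on a BGISEQ-500 (single end, 50 nt), and per the labels' protocols each library had 20 M reads. The authors deposited 1 table of TPM, made with kallisto and the build GRCh37.p13 per the submitters' processing notes. That build is human, whereas 34095 of the 34724 symbols are mouse gene names, so the transcript set and the summing to genes are not given in the sources used here. Column numbers were matched to the numbers that open the sample titles.

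Values were taken as log2(TPM + 1), a scale that understates changes of low genes. Genes with at least 1 TPM in at least 3 libraries were tested with limma 3.58.1 (R 4.3.3): 1 mean per group over all 30 libraries, empirical Bayes moderation with a variance trend, and BH adjustment over all 14093 genes. At each density D325H, S510L and F428D were set against WT, and WT against EV. Over both densities the 3 changed proteins were set against EV, and high against low density per construct and on average, with F tests over constructs. TPM do not hold the reads mapped per gene, so no counting error is given. Alternatives were pseudocounts of 0.1 and 5, no filter, a mean of at least 5 TPM, quantile normalization, median-ratio scaling, a replicate block, no variance trend, the compared groups alone, and each library left out. Leaving out both libraries of fewest genes above 0 was chosen after seeing the data.

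The members and the gene lists were chosen with earlier results of these data known, from general knowledge. Named beside the members are up to 3 called list genes of smallest p per list and comparison, and 3 most alike genes per member of at least 5 TPM. A gene that this rule would name is not reported here. Cdkn1a was also named because a list's only lower gene was singled out, and Prelid1, Cry2 and Trp53 because results touch them. Coordinates are GENCODE M21 (GRCm38), and promoter windows RefSeq GRCm38.p6. Replicate numbers did not pair the libraries: deviations of same-numbered libraries had a median correlation of 0.00833 (135 pairs, -0.281 to 0.483).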

Additional observations from a re-analysis of the deposited data

How the results depend on the processing

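No called member difference turned round in any alternative. Of 122 uncalled differences, 51 changed sign in some alternative, none above 0.264 in size. With pseudocount 0.1 the F test at high density called 3 members in place of 2 (Mga added, adjusted p = 0.0489). In high against low density with F428D, 1 called member became 0 with pseudocount 5, no filter, quantile normalization, median-ratio scaling, no variance trend, the compared groups alone, and without both libraries of fewest genes above 0. Averaged over constructs, the density count of 2 became 1 with no filter. In D325H against WT at low density, 1 became 0 with quantile normalization, median-ratio scaling and the compared groups alone. With the compared groups alone, D325H against WT at high density gave 2 (Max and Mxd3), S510L against WT at high density 4 (Max, Mxd3, Mxd4 and Mycl), and the F tests 1 at low density (Mycl) and 5 at high density. With a mean of at least 5 TPM, where Mycl is not tested, S510L at high density gave 1, and S510L at low density, S510L against EV and the F test at low density 2 each in place of 3. The cause of these changes was not tested.

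With 1 library left out, members called ranged from 0 to 1 for D325H against WT at each density, 1 to 2 for S510L at high and 2 to 4 at low density, 1 to 2 for D325H and 3 to 4 for S510L against EV. For density they ranged from 0 to 1 with F428D, 0 to 2 with D325H and 1 to 3 over constructs, and for the F tests from 2 to 3 at high and 2 to 4 at low density. Other comparisons stayed at 0. The replicate block changed 1 count of members called: the F test at high density gave 3, with Mga added (adjusted p = 0.0463, against 0.0511 without the block). In 8 of 30 libraries the deviations correlated best, on average over the other groups, with libraries of the same number.

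Counts over all genes moved more. With the compared groups alone, D325H against WT at low density called 247 genes (4081 as reported), S510L at low density 1182 (3277), S510L at high density 2852 (1293), and the F tests 1807 at low (4937) and 6000 at high density (3008). Without D325H high replicate 2, D325H against WT at high density called 253 (1436). TPM carry no depth, so differences of genes near or below 1 TPM, such as Mycl, are least certain.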
